A study of Homo sapiens with 24 samples.

Results

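MYC and its relatives form a network of transcription factors that share a basic helix-loop-helix leucine zipper and meet through the common partner MAX. The members described here are MYC, MAX, MXI1, MXD3, MXD4, MNT, MGA and MLX, 8 genes in all. MYC binds DNA only as a dimer with MAX and activates transcription. MXI1, MXD3, MXD4, MNT and MGA compete for MAX and recruit corepressors. MLX is a MAX-like protein that pairs with part of the MXD family, with MNT and with the Mondo proteins, linking the network to nutrient sensing. MYC itself drives growth in colorectal cancer cells.

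The samples were HCT116 cells, a human colorectal carcinoma line labelled HCT-116, in which either wild-type (WT) PHF5A or PHF5A carrying the Y36C substitution had been expressed in the parental line. PHF5A is a subunit of the SF3b complex, which recognises the branch site of introns, and E7107 is a pladienolide derivative that binds this complex. Each line was treated with DMSO, the solvent, or with E7107 for 6 h, and poly(A)-selected RNA was sequenced. This gave 4 groups of 6 samples each, called WT DMSO and WT E7107 for the wild-type line and Y36C DMSO and Y36C E7107 for the mutant line. The labels give no dose of E7107, and the methods of the study name more than 1 without tying either to single samples. The study's account of its splicing results names only 1 of them, which the labels do not tie to these samples. The treatment is described as done in hexaplicate. Each genotype was 1 engineered line, and whether the replicates were separate cultures is not said, so p-values measure only the spread between these samples, which may be technical.

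The files hold percent spliced in (PSI), the usage of a junction as a percentage of all reads at 1 of its splice sites, with reads that cross the exon-intron boundary counted among them. An entry for a boundary gives intron retention and an entry for a junction gives spliced usage. Entries were assigned to a member when they lay on its strand and within its span in the GENCODE annotation of GRCh37. This gave 938 of 1823643 entries: 108 for MYC, 90 for MAX, 67 for MXI1, 143 for MXD3, 77 for MXD4, 77 for MNT, 261 for MGA and 115 for MLX. Of these, 316 were boundaries and 622 were junctions. The reference transcripts of the members have 55 introns, for which 108 boundaries were listed. The remaining boundaries belong to alternative or unannotated sites, often inside exons. They are not read as retention of an intron below, but those that passed the filter on PSI are part of the gene values. MXD3 overlaps RAB24 on the same strand, and entries inside RAB24 are named as such.

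Read depth is unknown because the files hold no counts. Of 636130 splice sites listed, a median of 337968.5 had reads in WT and 336782 in Y36C cells given DMSO, against 282785.5 and 330507 given E7107. WT E7107 libraries therefore covered fewer sites. Among the members this loss fell mainly on MNT, MXD3 and MGA. All 6 samples had reads at 40 MNT entries in WT DMSO and at 4 in WT E7107, at 86 and 43 MXD3 entries, at 180 and 95 MGA entries and at 68 and 64 MLX entries. In Y36C cells the E7107 samples kept 40 MNT, 73 MXD3 and 180 MGA entries. Of the epithelial markers, EPCAM, KRT18, CDH1 and CDX2 had reads at every listed reference site in all 12 DMSO samples, and KRT8 at 14 of 16 and KRT20 at 4 of 14, whereas CDX1 had no site listed and VIL1 none with reads in all of them. The immune markers PTPRC and CD3E had no site listed and COL3A1 and the endothelial VWF none with reads in all 12, while the fibroblast collagen gene COL1A1 had reads at 95 of 100 sites in those samples.

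The sequences that the results turn on are read from the GRCh37 reference, 5′ to 3′ on the strand of the gene, with exon bases in capitals and intron bases in lower case. MAX exon 2 is the 27-base cassette exon that separates the long from the short MAX isoform (chr14:65568244-65568330, minus strand), and the acceptor of intron 2 (chr14:65560522-65560573) is joined whether the exon is used or not.
MAX exon 2: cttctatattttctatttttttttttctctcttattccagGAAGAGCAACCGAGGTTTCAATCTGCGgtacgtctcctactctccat
MAX intron 2 acceptor: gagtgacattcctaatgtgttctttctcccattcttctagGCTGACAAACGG

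MNT intron 5 had the largest and MXD3 intron 5 the lowest change in retention under E7107 in WT cells among the introns measured. The acceptor of the first (chr17:2290932-2290983, minus strand) and the whole of the second with 6 exon bases on either side (chr5:176734699-176734787, minus strand) are shown for that reason.
MNT intron 5 acceptor: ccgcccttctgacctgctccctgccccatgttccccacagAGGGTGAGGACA
MXD3 intron 5: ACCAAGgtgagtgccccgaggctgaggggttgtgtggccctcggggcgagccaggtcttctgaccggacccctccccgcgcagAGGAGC

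Of the exons skipped more often in Y36C cells, those of MLX and MXI1 were chosen for display after their values were seen. The MLX line gives the acceptor of exon 4 (chr17:40720815-40720866, plus strand), which is joined whether exon 3 is used or not. The MXI1 line gives the whole 30-base exon (chr10:112004546-112004635, plus strand).
MLX intron 3 acceptor: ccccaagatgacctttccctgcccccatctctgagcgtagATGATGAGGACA
MXI1 exon 3: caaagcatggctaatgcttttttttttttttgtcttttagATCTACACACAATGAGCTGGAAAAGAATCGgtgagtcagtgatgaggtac

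E7107 raised retention across most of the network in WT cells, most in MNT, MYC and MAX. It left MXI1 and MXD4 without a call, but hardly any of their boundaries entered the tests. Averaged over the reference boundaries with reads in all 24 samples, retention in WT cells went from 2.36% ± 2.63 (SD, n = 6) to 76.5% ± 14.2 for MNT, over 2 boundaries. It went from 3.84% ± 0.18 to 41.9% ± 0.716 for MYC, from 1.90% ± 0.488 to 27.7% ± 5.71 for MAX and from 0.952% ± 0.299 to 20% ± 5.15 for MGA. MXD3 started high, at 18% ± 2.69, and reached 32.7% ± 5.55. MLX rose only from 3.27% ± 0.465 to 7.06% ± 1.30. MXD4 averaged 3.78% ± 1.39 and 5.01% ± 3.10, and MXI1 1.72% ± 0.463 and 1.38% ± 0.596.

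**Figure D1:**
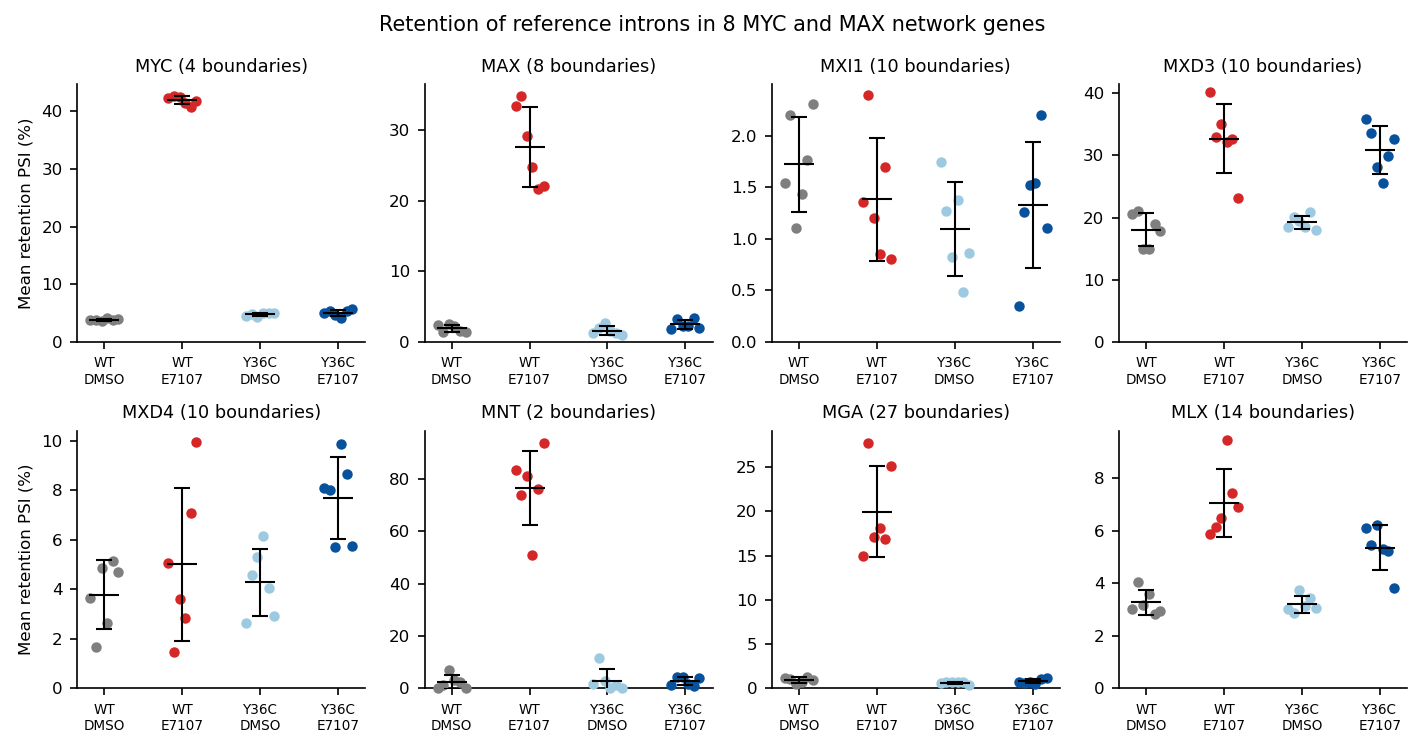
Mean retention PSI (percent) over the reference boundaries of each gene that had reads in all 24 samples, by group. Points are the 6 samples, and bars give the mean ± SD. The WT E7107 samples stand above all other groups in MYC, MAX, MNT and MGA, WT and Y36C E7107 are both raised in MXD3 and MLX, and the groups overlap in MXI1. Each panel has its own axis.

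Single boundaries were tested with limma after PSI was turned into natural-log odds, with 1 percentage point added to both parts. Benjamini-Hochberg adjustment ran over every entry whose site had reads in each sample compared and whose PSI exceeded 0 throughout 1 or more of the groups. At an adjusted p of 0.05 or less, 38 of the 48 member boundaries tested were higher under E7107 in WT cells and 0 were lower. Without entries inside RAB24, 34 of 44 were higher and 0 lower. The background was large: 70.8% of all boundaries tested were called higher and 5.78% lower. Of the 39 reference boundaries tested, 29 were called higher, against 73.9% of all reference boundaries. At 15 of these 29 the lower group held a sample at 0, so they entered the test only through the group in which they were high. Without the requirement on PSI, 38 of 85 reference boundaries were called higher and 0 lower. The shares over all boundaries belong to the main filter. Counts under other filters, here and below, are given without such a share and cannot be set against the background.

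At the level of genes, the mean log odds over all boundaries of a gene that passed the same filter was fitted with limma in all 24 samples and adjusted over 10519 genes. Retention rose in 6 of the 8 members, where 70.4% of all genes were called higher. The median change was 1.25 in log odds over all genes. The estimate was 5.07 ± 0.44 (SE) for MNT, 2.98 ± 0.15 for MAX, 1.99 ± 0.04 for MYC, 1.67 ± 0.12 for MXD3, 1.66 ± 0.62 for MGA and 0.92 ± 0.08 for MLX. MXD4 at −0.28 ± 0.37 and MXI1 at −0.65 ± 0.55 did not pass, with adjusted p-values of 0.482 and 0.277. These estimates rest on few boundaries in several genes: 1 for MGA, 1 for MXI1, 2 for MXD4 and 2 for MNT, against 7 for MYC, 9 for MAX, 13 for MXD3 and 15 for MLX. Of the 13 MXD3 boundaries 4 lie inside RAB24, and of the 7 MYC boundaries 4 belong to reference introns. Over reference introns only, an alternative added after seeing the data, the estimate was 0.99 ± 0.13 for MXD3 and 2.80 ± 0.04 for MYC. The MGA rise did not pass with an offset of 0.1 percentage points (1.47 ± 1.03, adjusted p = 0.193) or in a fit of the 12 WT samples (adjusted p = 0.0556). The filter could also be passed through the group in which retention was high. Only 3 of the 9 MAX boundaries, and neither MNT boundary, had PSI above 0 throughout a DMSO group. This holds for their gene values in the comparisons below as well. Without the filter, tests of single reference boundaries called 8 of 8 for MAX and 2 of 2 for MNT higher in WT cells.

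MYC has 2 introns and both were retained in WT cells under E7107. At the 5′ boundary of intron 1 (intron of 1624 bases; boundary at chr8:128748869-128748871), WT DMSO samples lay between 0.984% and 1.79% with a median of 1.49%, and WT E7107 samples between 48.6% and 53.3% with a median of 51.3%. Y36C DMSO samples had a median of 1.70% and Y36C E7107 samples a median of 2.58%, with a highest value of 3.15%. WT E7107 was thus far apart from the other 3 groups. The Y36C E7107 samples, which started at 1.82%, also lay just above the WT DMSO samples, and Y36C DMSO overlapped both. The change in log odds was 3.77 ± 0.11 in WT cells (limma, adjusted p = 1.4e-10) and 0.27 ± 0.13 in Y36C cells (adjusted p = 0.17), and the interaction was −3.50 ± 0.15 (adjusted p = 2.1e-14).

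The 3′ boundary of MYC intron 1 was the leakier one without drug. It averaged 8.97% ± 0.562 in WT cells and 69.4% ± 0.766 once E7107 was given, and 9.81% ± 1.16 and 10.6% ± 1.35 in Y36C cells. Intron 2 responded less than intron 1. Its 5′ boundary rose from 2.24% ± 0.542 to 25.0% ± 1.14 and its 3′ boundary from 2.71% ± 0.339 to 22.1% ± 0.712 in WT cells, where all 4 MYC boundaries were called. None of the 4 was called in Y36C cells, and all 4 were lower in Y36C than in WT cells under E7107. Spliced usage fell to match, since percentages at a site add up to 100: the intron 1 junction seen from its acceptor fell from 91.0% ± 0.604 to 30.6% ± 0.768, and seen from its donor from 74.4% ± 1.29 to 35.9% ± 1.68. The intron 2 junction fell from 97.1% ± 0.639 to 74.4% ± 1.12 at its donor.

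The remaining usage at the donor of MYC intron 1 went mainly to an annotated acceptor 3 bases downstream (chr8:128748869-128750496). As a share of all reads at the donor it fell from 22.5% ± 1.16 to 12.5% ± 0.600 in WT cells (adjusted p = 6.4e-05). As a share of the spliced usage of both acceptors it went the other way, from 23.2% ± 1.21 to 25.8% ± 1.12 (exact permutation test, 2-sided, p = 0.00649, adjusted p = 0.0216). The second measure leaves retention out. This acceptor was picked by its usage in WT E7107 samples, so the p-value is no test of an entry chosen beforehand. In Y36C cells the share of spliced usage was 22.7% ± 2.06 and 22.2% ± 1.87 (exact permutation p = 0.710). The choice between the acceptors thus changed by 2.62 percentage points in WT cells, where retention of intron 1 changed by 55.1 points.

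MAX, the obligate partner, retained all 4 of its introns in WT cells under E7107. At the 5′ boundary of intron 3, the longest MAX intron with 15671 bases, WT DMSO samples ranged from 0% to 2.58% with a median of 1.18% and WT E7107 samples from 37.5% to 56.4% with a median of 45.3%. The Y36C groups reached at most 3.85% in DMSO and 2.94% under E7107. The intron 3 junction at the same donor fell from 94.3% ± 1.46 to 46.0% ± 6.95 in WT cells (adjusted p = 2e-08) and from 95.3% ± 1.69 to 91.1% ± 2.76 in Y36C cells (adjusted p = 0.032). The 8 boundaries of MAX averaged from 0.343% to 4.48% in WT DMSO and from 21.8% to 46.0% in WT E7107, and all 8 were called higher. The smallest change was at the 3′ boundary of intron 4, where the log odds rose by 1.67 ± 0.24 (adjusted p = 5.3e-05). The 3′ boundary of intron 4 was also the one MAX boundary called in Y36C cells, where it went from 3.04% ± 1.63 to 8.38% ± 1.79 (adjusted p = 0.0066). The difference between the genotypes in this change was −0.71 ± 0.32 and did not pass (adjusted p = 0.073).

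MNT, a ubiquitously expressed MAX-binding repressor, could be followed at 1 intron only. At the 3′ boundary of intron 5, a 207-base intron, WT DMSO samples lay between 0% and 6.45% with a median of 2.64% and WT E7107 samples between 55.0% and 93.3% with a median of 82.5%. The Y36C samples stayed at or below 11.8% in DMSO and 8.33% under E7107. The log odds rose by 4.99 ± 0.44 in WT cells (adjusted p = 7e-07), the interaction was −4.72 ± 0.71 (adjusted p = 6.4e-06), and the 5′ boundary gave 5.16 ± 0.54 and −5.17 ± 0.75. Both boundaries were at 0% in a WT DMSO sample. They thus entered the WT test only through the E7107 group, in which they were high. Without the filter on PSI, 2 of 2 were called higher in WT cells and 2 of 2 lower in the interaction. The intron 5 junction seen from its acceptor fell from 97.4% ± 2.43 to 21.0% ± 13.3 in WT cells, and seen from its donor stood at 26.0% ± 16.4 in WT E7107 against 99.1% ± 1.36 in Y36C E7107. At the 8 boundaries of introns 1 to 4, between 0 and 5 of the 6 WT E7107 samples had reads, so they were not tested. Where reads were present, values differed between boundaries: the 3′ boundary of intron 2 ran from 66.7% to 90.9% in 5 WT E7107 samples, against at most 13.6% in WT DMSO, whereas its 5′ boundary had a median of 0% in the same group.

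MGA, the largest protein of the network and a subunit of the PRC1.6 repressor complex, has 22 reference introns. Of these, 11 had reads at both boundaries in all 12 WT samples, and in all 11 the mean PSI was higher under E7107, by 6.42 to 31.8 percentage points. Intron 14 (8433 bases) went from 2.60% to 34.4%, intron 5 (8568 bases) from 0.666% to 28.2% and intron 3 (1839 bases) from 0.388% to 6.81%. In Y36C cells 20 introns could be followed and the change lay between −0.76 and 5.76 percentage points, with 10 of 20 higher. No share over the introns of all genes was computed for these counts. Because PSI was 0 in at least 1 sample of each group at most MGA boundaries, only 1 boundary entered the gene value. Where a group mean of 5% or more was asked for instead, 11 of 26 MGA reference boundaries were called higher in WT cells and 0 lower. With neither, 8 of 27 were, and the MGA estimate was 1.87 ± 0.14 (adjusted p = 9.02e-12). Junction usage fell in WT cells, for intron 6 seen from its donor from 98.0% ± 3.45 to 55.8% ± 13.8, for intron 7 seen from its acceptor from 96.7% ± 5.24 to 53.1% ± 25.1 and for intron 17 seen from its donor from 97.8% ± 1.99 to 51.4% ± 37.4. Mean retention of introns 6 and 7 rose by less, by 16.9 and 14.8 points, and both of these ends are also used by the junction that skips exon 7. Intron 17 was not among the 11.

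MLX was weakly retained. Of its 14 reference boundaries tested in WT cells, 8 were called higher, but none averaged above 10.6% under E7107. The 5′ boundary of intron 2 averaged 3.44% ± 1.68 and 10.6% ± 5.48, and the 3′ boundary of intron 1 averaged 0.729% ± 0.567 and 9.37% ± 4.29. Intron 1 is the only one of the 55 reference introns that starts with GC rather than GT. An annotated alternative donor lies inside that intron. Seen from it, the junction chr17:40719346-40719636 fell from 96.5% ± 3.94 in WT DMSO to 49.6% ± 19.8 in WT E7107 (adjusted p = 0.00011), and was at 100% in all Y36C DMSO samples and at 98.3% ± 2.65 in Y36C E7107.

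In MXD3, a repressor of the MXD family, 7 of 9 reference boundaries tested were higher in WT cells under E7107. Both boundaries of intron 3 (127 bases) were already at 25.8% ± 7.22 and 30.9% ± 10.7 in WT DMSO and rose to 51.9% ± 6.68 and 51.3% ± 10.3. Intron 1 (276 bases) went from a mean of 7.98% over both boundaries to 37.4%. Intron 5 did not follow. It has 77 bases, the fewest of the 55 introns, with a GC content of 72.7%.

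At the 3′ boundary of MXD3 intron 5, WT DMSO samples lay between 22.0% and 40.8% (median 28.1%) and WT E7107 samples between 6.25% and 33.3% (median 25.0%), a difference that did not pass (adjusted p = 0.15). Y36C DMSO samples lay between 18.4% and 33.9% (median 25.1%) and Y36C E7107 samples between 40.7% and 76.9% (median 53.3%), with no overlap. The change in Y36C cells was 1.28 ± 0.25 in log odds (adjusted p = 0.0029), and at the 5′ boundary it was 1.24 ± 0.22 (adjusted p = 0.0017). The interaction was 1.83 ± 0.40 (adjusted p = 0.00051) and 2.09 ± 0.68 (adjusted p = 0.013). Of the 41 reference boundaries for which the interaction was tested, these 2 were the ones called greater in Y36C cells. Over all genes, 9524 of 105254 reference boundaries were called so.

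**Figure D2:**
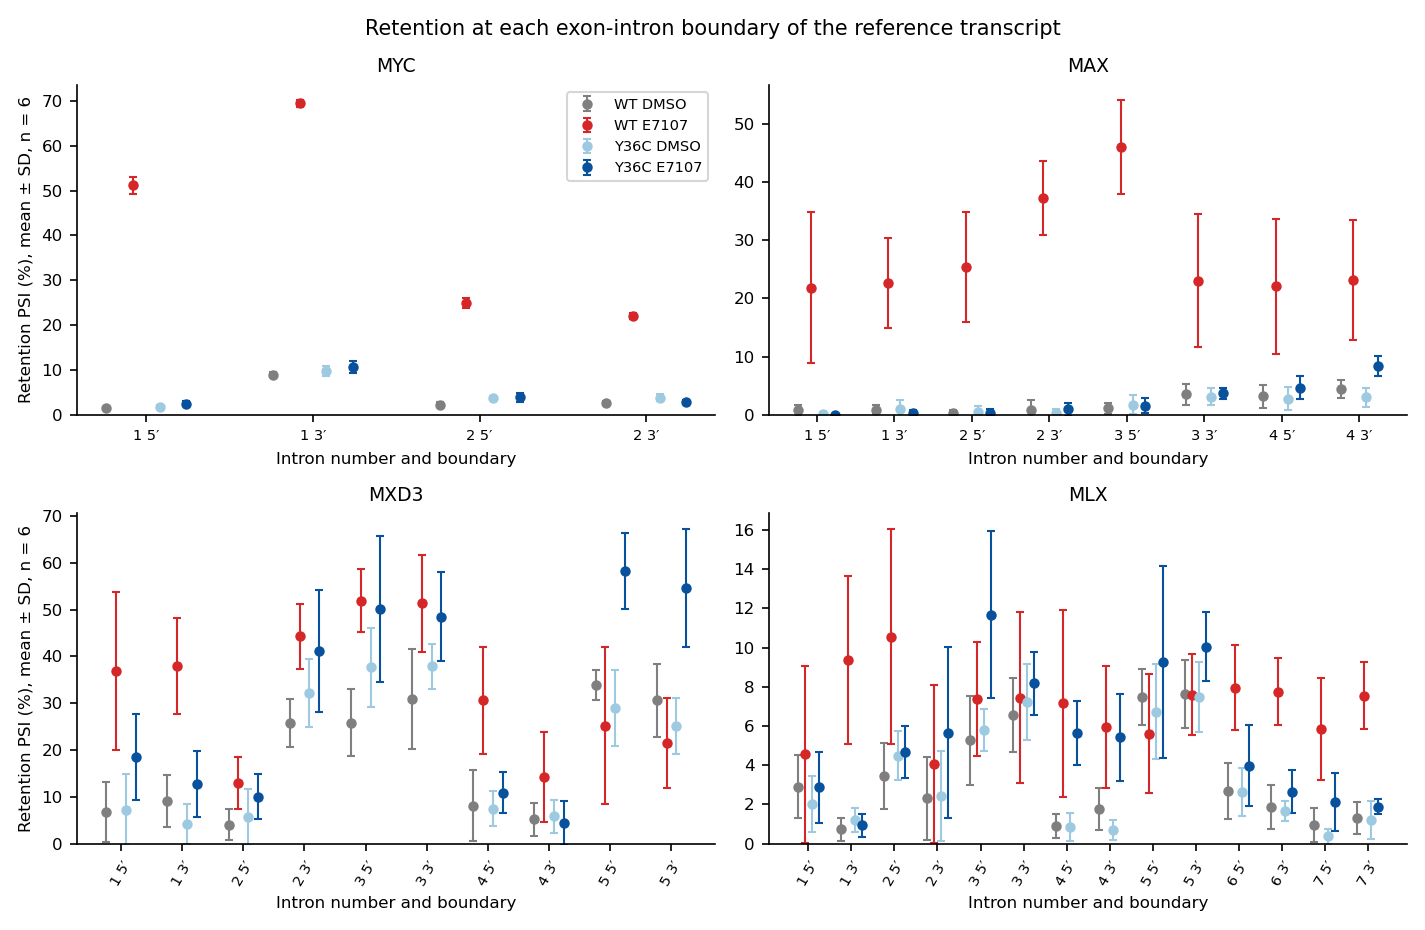
Retention PSI (percent) at each 5′ and 3′ boundary of the reference introns of MYC, MAX, MXD3 and MLX, numbered along the transcript. Points are group means and bars the SD of 6 samples. WT E7107 stands apart at all boundaries of MYC and MAX, whereas Y36C E7107 is the highest group at both boundaries of MXD3 intron 5. Each panel has its own axis.

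Retention was low in the remaining repressors, and few of their entries were called. MXI1 is a tumour suppressor candidate that antagonises MYC. Its 10 reference boundaries averaged at most 8.22% in any group and none was tested in WT cells, since neither WT group had a PSI above 0 in all 6 samples. Without that requirement, 1 of 10 was called higher in WT cells and 0 lower. Of its 10 reference junction entries tested in WT cells, 2 were higher and 1 was lower. Over junction entries of every kind and all genes, 18031 of 245369 were called higher and 97712 lower. The junction of intron 1 seen from its acceptor rose from 71.2% ± 6.14 to 83.7% ± 6.25 (adjusted p = 0.016). That of intron 2 seen from its donor fell from 94.4% ± 2.16 to 89.5% ± 3.45 in WT (adjusted p = 0.023) and from 95.9% ± 3.49 to 89.8% ± 1.43 in Y36C cells (adjusted p = 0.012). In MXD4, a MAX-binding repressor of differentiated cells, only 1 of 10 reference boundaries could be tested under E7107 in each genotype, without a call. With the 5% requirement in place of that on 0, 2 of 7 were higher in Y36C and 0 of 5 in WT cells. The junction of MXD4 intron 5 seen from its donor fell in Y36C cells, from 97.8% ± 2.62 to 89.3% ± 4.89 (adjusted p = 0.013), and that of the 92-base intron 1 from 96.6% ± 3.79 to 86.1% ± 8.42 (adjusted p = 0.035). Under E7107, the 3′ boundary of MXD4 intron 3 was higher in Y36C than in WT cells, at 11.7% ± 5.18 against 1.81% ± 2.91 (adjusted p = 0.0018), and the junction seen from the same acceptor was lower, at 86.8% ± 3.94 against 98.2% ± 2.91 (adjusted p = 0.00059). The boundary entered this comparison only through the Y36C group, in which it was high. Without the filter on PSI, 1 of 10 MXD4 reference boundaries was called higher in Y36C here and 0 lower.

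In Y36C cells E7107 raised 10 of 51 member boundaries and lowered none, against 26.8% called higher over all boundaries. Without entries inside RAB24, 8 of 40 were called higher. Of the reference boundaries, 8 of 34 were higher (30.0% of all reference boundaries), 3 of which entered the test only through the E7107 group. They were the 2 boundaries of MXD3 intron 5, the 3′ boundary of MXD3 intron 1, the 3′ boundary of MAX intron 4 and 4 boundaries of MLX (both of intron 4 and the 5′ boundaries of introns 3 and 7). MLX intron 4 (260 bases) rose in both genotypes: its 5′ boundary went from 0.901% ± 0.629 to 7.16% ± 4.77 in WT and from 0.841% ± 0.700 to 5.65% ± 1.62 in Y36C cells, with an interaction of −0.05 ± 0.36 (adjusted p = 0.92). At the gene level retention rose in 2 of the 8 members, MXD3 by 0.80 ± 0.12 (adjusted p = 7.2e-06) and MLX by 0.47 ± 0.08 (adjusted p = 4.6e-05), where 42.3% of all genes were called higher. MYC missed the threshold with 0.11 ± 0.04 (adjusted p = 0.0514), and MAX had 0.24 ± 0.15 (adjusted p = 0.204).

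Set against each other under E7107, the genotypes differed at 34 of 48 member boundaries. Y36C was lower at 31 and higher at 3, where 62.9% of all boundaries were called lower and 11.7% higher. The 3 higher ones were both boundaries of MXD3 intron 5 and the 3′ boundary of MXD4 intron 3. The MXD4 boundary and the 5′ boundary of MXD3 intron 5 entered this comparison only through the Y36C group. Of the 39 reference boundaries tested, 23 were lower (65090 of 99985 over all reference boundaries). Of those 23, 8 entered only through the WT group. Without the filter on PSI, 32 of 85 reference boundaries were lower and 3 higher. Without entries inside RAB24, 27 of 44 member boundaries were lower and 3 higher. The interaction, which compares the 2 responses to the drug, was lower in Y36C at 26 of 50 member boundaries (54.9% of all boundaries) and higher at 2 (8.94%). Without entries inside RAB24 it was lower at 23 of 46 and higher at 2. By gene, 6 members (MNT, MAX, MGA, MYC, MXD3 and MLX) were lower in Y36C than in WT under E7107 (64.1% of all genes), and for these 6 the interaction was lower as well (60.3% of all genes). It was higher for 0 members (16.4% of all genes). Most MAX boundaries and both MNT boundaries in these gene values passed the filter only through E7107 samples. Both MXD3 calls ended over its 9 reference boundaries, without those inside RAB24, where the difference under E7107 was −0.10 ± 0.13 (adjusted p = 0.474) and the interaction −0.15 ± 0.18 (adjusted p = 0.432). The interaction also did not pass for MLX with the median over its boundaries (−0.22 ± 0.17, adjusted p = 0.259), nor for MGA with an offset of 0.1 percentage points (−2.37 ± 1.46, adjusted p = 0.148). MXD4 was higher in Y36C under E7107 by 1.04 ± 0.37 (adjusted p = 0.0122, 18.8% of all genes higher), but its interaction of 0.55 ± 0.52 did not pass (adjusted p = 0.343).

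**Figure D3:**
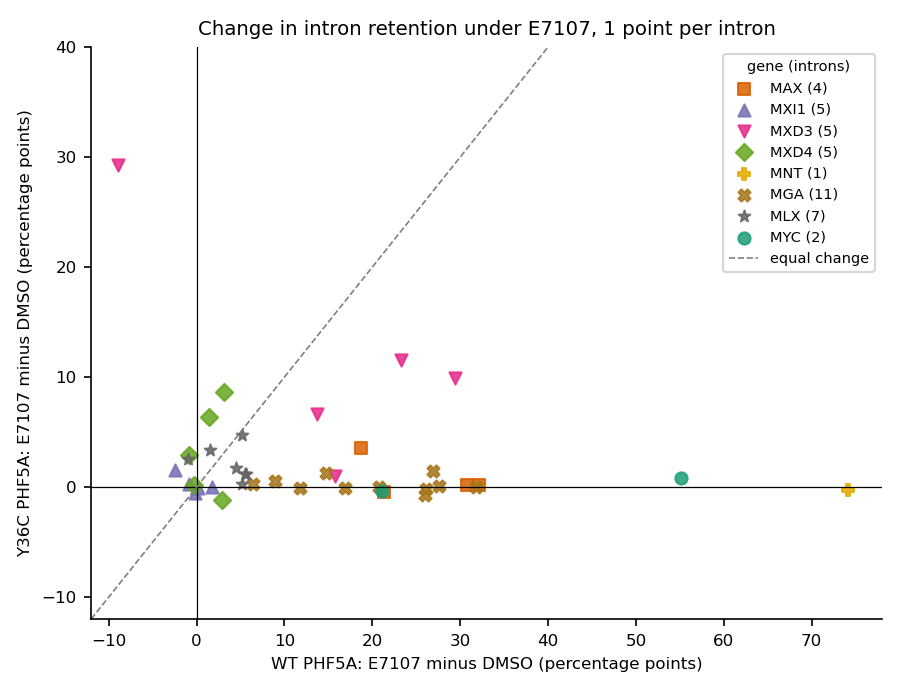
Change in mean retention under E7107 (percentage points) in WT cells on the horizontal axis and in Y36C cells on the vertical axis, 1 point per reference intron measured at both boundaries in all samples of both genotypes. The introns of MYC, MAX, MGA and MNT lie along the horizontal axis with rises of 6.42 to 74.1 points in WT cells, and MXD3 intron 5 lies alone at −8.91 and 29.3. The axes have different scales, and the dashed line marks equal change.

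Of the 55 introns, 40 had reads at both boundaries in all WT samples and 33 of these had a higher mean under E7107. In Y36C cells the numbers were 36 of 53. The share of all introns that rose by this measure was not computed, so these counts cannot be set against the background. Across the 40 introns, the change in WT cells had a Spearman rho of 0.12 with intron length and −0.16 with GC content. Across the 53 introns, the change in Y36C cells had a rho of −0.37 with length and 0.46 with GC content. The largest rises in Y36C cells were 29.3 points for the 77-base MXD3 intron 5, 11.5 for the 127-base MXD3 intron 3, 9.89 for the 276-base MXD3 intron 1 and 8.61 for the 92-base MXD4 intron 1. Without MGA, which has 20 of the 53 introns, the values were −0.56 and 0.47 over 33 introns. Retention in Y36C DMSO gave a rho of 0.44. Introns of 1 gene share transcripts and libraries, and these values are descriptions.

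Without drug the genotypes were close. Of 51 member boundaries, 1 was higher in Y36C than in WT cells (0.0877% of all boundaries) and 0 were lower (0.0778%). Of 150 junction entries, 1 was lower (0.0456% of all junction entries). Both of the entries called lay inside RAB24. At the gene level no member was called. MYC came nearest, with 0.17 ± 0.04 in log odds (adjusted p = 0.104). Over the 4 boundaries of its reference introns alone, an alternative added after seeing the data, the estimate was 0.22 ± 0.04 (adjusted p = 0.0177), a mean retention of 4.79% ± 0.271 in Y36C against 3.84% ± 0.18 in WT cells.

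Exon skipping rose in Y36C cells. E7107 raised 12 of the 16 exon-skipping entries of the members tested in Y36C cells, where 52.6% of all such entries were called higher, and 6 of the 12 entered the test only through the E7107 group. Each junction is listed once for each of its ends, so the 12 entries are 6 junctions: MAX exon 2, MAX exon 4, MLX exon 3, MLX exon 5, MXI1 exon 3 and MNT exon 3. In WT cells 0 of 6 entries were higher and 1 was lower, where 34.6% and 12.9% were called over all such entries.

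MAX exon 2 carries 27 bases, a multiple of 3, so that both forms keep the reading frame. Skipping, seen from the acceptor of exon 3, lay between 25.2% and 31.7% in the WT DMSO samples (median 27.0%) and between 11.8% and 25.6% with E7107 (median 16.1%). In Y36C cells it lay between 25.0% and 46.4% with DMSO (median 32.3%) and between 41.4% and 54.3% with E7107 (median 50.1%). Y36C E7107 did not overlap with either WT group but overlapped with Y36C DMSO. The log odds fell by 0.58 ± 0.17 in WT cells (adjusted p = 0.0096) and rose by 0.59 ± 0.17 in Y36C cells (adjusted p = 0.025). The interaction was 1.17 ± 0.23 (adjusted p = 0.00017), and under E7107 the genotypes differed by 1.47 ± 0.18 (adjusted p = 1.5e-05).

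The fall in WT cells disappeared once retention was left out. Of the spliced usage at that acceptor, skipping took 28.3% ± 2.57 in WT DMSO and 28.1% ± 6.52 in WT E7107, a difference of −0.19 percentage points (exact permutation test, 2-sided, p = 0.946). In Y36C cells the same share rose from 34.8% ± 7.49 to 49.9% ± 5.32, by 15.2 points (exact permutation p = 0.00866, adjusted p = 0.0273). The share at the donor of exon 1 gave 28.3% ± 2.87, 28.3% ± 5.79, 35.3% ± 7.38 and 49.4% ± 4.74 for the groups in that order. There were 60 exact tests of such shares, to which the adjusted values refer, and the smallest p that 6 against 6 samples allow is 0.00216. The skipping junctions among them were picked because limma had called them in 1 or more comparisons. The MYC acceptor and the alternative last exon of MAX were picked by their usage in WT E7107 samples. These p-values therefore describe entries picked from the same data and are no separate test of them.

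The junctions that include MAX exon 2 moved as follows. Exon 2 to exon 3, seen from the acceptor, fell from 70.2% ± 3.25 to 44.6% ± 3.71 in WT cells (adjusted p = 8.5e-06) and from 64.4% ± 7.24 to 48.7% ± 5.24 in Y36C cells (adjusted p = 0.014). Exon 1 to exon 2, seen from the donor, fell from 71.2% ± 3.04 to 56.2% ± 11.0 in WT cells and from 64.6% ± 7.42 to 50.6% ± 4.74 in Y36C cells. In WT cells the acceptor of exon 3 gained 36.4 percentage points of retention, and in Y36C cells retention at the same acceptor was 0.364% ± 0.608 and 0.962% ± 1.08.

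MAX exon 4 has 124 bases, which is no multiple of 3. Its skipping stayed rare but was 0% in all WT E7107 samples and between 0.769% and 2.59% in Y36C E7107 at the donor of exon 3, against at most 0.649% in Y36C DMSO (adjusted p = 0.003, interaction adjusted p = 3.5e-05). It entered these tests only through the Y36C E7107 group, in which it was high. Without the filter on PSI the adjusted p-values were 0.00495 and 3.09e-05. The donor of exon 3 also leads to an alternative last exon inside intron 3 (chr14:65551017-65560425). This junction took 3.40% ± 1.14 of the donor in WT DMSO and 8.05% ± 2.32 in WT E7107 (adjusted p = 0.0013). Of spliced usage at the donor its share rose from 3.48% ± 1.16 to 14.9% ± 3.27 in WT cells, by 11.4 points with no overlap between groups (exact permutation p = 0.00216, adjusted p = 0.00928). In Y36C cells it was 2.22% ± 0.632 and 4.10% ± 1.81 (exact permutation p = 0.0390, adjusted p = 0.0835). Seen from its own acceptor, the junction fell from 92.1% ± 12.2 to 16.5% ± 5.38 in WT cells (adjusted p = 3.5e-05), the rest of that site being boundary reads, and the boundary lies within retained intron 3. Exon skipping aside, the other junctions of the exon 3 donor outside the reference averaged at most 0.809% in any group.

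**Figure D4:**
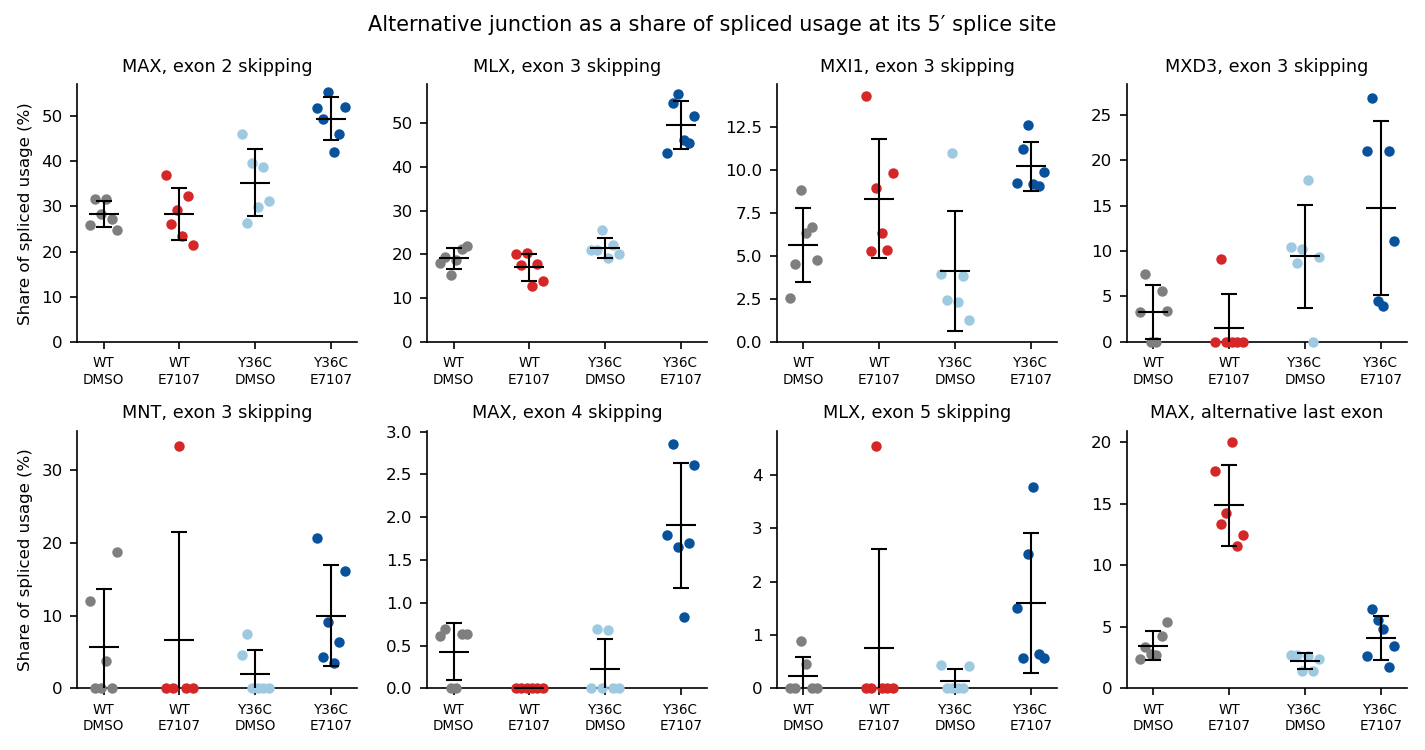
Alternative junctions of MAX, MLX, MXI1, MXD3 and MNT as a percentage of spliced usage at their 5′ splice site, with retention left out. Points are samples (6 per group, 5 for MNT in WT E7107) and bars the mean ± SD. Y36C E7107 stands above the other groups for MLX exon 3, at 43.2% to 56.7%, and WT E7107 above the others for the alternative last exon of MAX, at 11.5% to 20%. Each panel has its own axis.

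MLX exon 3 showed the largest rise in skipping. It has 90 bases, a multiple of 3. Seen from the donor of exon 2, skipping lay between 14.6% and 20.9% in the WT DMSO samples (median 18.4%) and between 9.80% and 19.3% with E7107 (median 15.4%). In Y36C cells it lay between 18.4% and 24.0% with DMSO (median 19.9%) and between 41.2% and 53.4% with E7107 (median 46.5%). The Y36C E7107 samples were apart from all others. The change in log odds was 1.21 ± 0.13 in Y36C cells (adjusted p = 5.1e-05) and −0.24 ± 0.15 in WT cells (adjusted p = 0.2), with an interaction of 1.45 ± 0.18 (adjusted p = 6e-07). The junctions that include the exon fell in Y36C cells, from 74.9% ± 2.87 to 47.7% ± 5.09 for exon 2 to exon 3 and from 74.6% ± 2.71 to 48.5% ± 4.19 for exon 3 to exon 4. As a share of spliced usage, skipping rose from 21.5% ± 2.26 to 49.7% ± 5.50 in Y36C cells (exact permutation p = 0.00216, adjusted p = 0.00928). In WT cells it went from 19.2% ± 2.38 to 17.1% ± 3.12 at the donor (exact permutation p = 0.216) and from 17.6% ± 1.34 to 14.4% ± 2.80 at the acceptor of exon 4, where the difference passed (exact permutation p = 0.0130, adjusted p = 0.0354). MLX exon 5, of 100 bases, was skipped in 0.140% ± 0.217 of reads at its donor side in Y36C DMSO and 1.48% ± 1.21 in Y36C E7107. It entered the test only through the latter group (adjusted p = 0.026). Without the filter on PSI it did not pass at this end (adjusted p = 0.0501) but did at the other (adjusted p = 0.0424).

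The third exon is 30 bases long in the reference transcripts of MXI1, MXD3 and MXD4, is followed in each by an exon of 115 bases, and has 42 bases in MNT. Skipping of MXI1 exon 3, seen from the donor of exon 2, averaged 5.61% ± 2.16 without and 8.14% ± 3.39 with E7107 in WT cells, and 4.13% ± 3.49 and 10.2% ± 1.43 in Y36C cells. The rise in Y36C cells passed (0.99 ± 0.25, adjusted p = 0.012), but 1 Y36C DMSO sample at 11.0% lay within the E7107 range, and neither the rise in WT cells (adjusted p = 0.21) nor the interaction (0.64 ± 0.33, adjusted p = 0.12) did. MNT exon 3 went from 1.99% ± 3.22 to 10% ± 6.94 in Y36C cells, with overlapping groups. It too entered the test only through the Y36C E7107 group (adjusted p = 0.023), and without the filter on PSI it did not pass at this end (adjusted p = 0.0533).

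Skipping of MXD3 exon 3 at the donor of exon 2 was 3.17% ± 2.84 without and 1.39% ± 3.40 with E7107 in WT cells, and 8.72% ± 4.80 and 13.4% ± 8.79 in Y36C cells. The genotypes differed under E7107 (2.22 ± 0.49, adjusted p = 0.0017), a comparison the entry joined only through the Y36C E7107 group, as 5 of the 6 WT E7107 samples were at 0% (adjusted p = 0.00382 without the filter on PSI), while the effect of E7107 in Y36C cells did not pass (adjusted p = 0.54). Skipping of MXD4 exon 3 took 1.30% ± 2.03 of reads in Y36C E7107 and was 0% in every sample of the other groups. It did not enter the test, and without the filter on PSI the rise in Y36C cells did not pass at either end (adjusted p = 0.457). Under E7107, 8 of 14 exon-skipping entries of the members were higher in Y36C than in WT cells (44.4% of all such entries), 4 of them entered only through the Y36C group, and the interaction was higher at 6 of 14 (35.4%), those of MAX exon 2, MAX exon 4 and MLX exon 3.

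In WT cells, skipping within MGA was seen under E7107 but varied widely. The junction across MGA exon 7 (105 bases) took 1.57% ± 2.49 of its donor in WT DMSO and 25.6% ± 22.7 in WT E7107, where samples ran from 0% to 57.1%. It did not enter the test because at least 1 sample of each group was at 0, and without that requirement it did not pass (2.16 ± 0.91, adjusted p = 0.108). The 3 MXD3 entries with the largest differences were all junctions of RAB24, with differences of −63.2, −60.7 and −60.3 percentage points in WT cells, and are not read as MXD3.

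Genes that work with the network were read from 5 lists with 40 genes, of which 37 could be tested at the gene level. In WT cells 31 of the 37 were higher and 1 was lower, where 70.4% of all genes were called higher and 11.7% lower, with a median change of 1.14 against 1.25 over all genes. In Y36C cells 22 were higher and 0 lower, against 42.3% and 0.77% of all genes, with a median of 0.33 against 0.27. These gene values include boundaries outside reference introns. Their boundaries passed the same filter, which could be passed through the group in which retention was high. How many boundaries stand behind each value is not given. All 5 tested genes among the other network members rose in WT cells: the mean boundary PSI of USF1, an E-box binding factor, went from 8.89% ± 0.459 to 61.1% ± 3.14 and that of MLXIP (MondoA), the partner of MLX, from 4.38% ± 0.436 to 47.9% ± 2.71. MLXIP also rose in Y36C cells, from 4.40% to 10.8%.

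Among the coactivators 8 of 9 rose in WT cells and 8 of 9 in Y36C cells, to be set, like the counts that follow, against the 70.4% and 42.3% of all genes. ZBTB17 (MIZ1), through which MYC represses, went from 7.26% ± 1.04 to 89.1% ± 2.11 in WT and from 9.14% to 20% in Y36C cells, and WDR5, which anchors MYC to chromatin, from 2.56% ± 0.151 to 45.6% ± 3.47 in WT cells. Of the corepressors 6 of 8 rose in WT cells. SIN3A, the scaffold that MXD proteins bind, went from 1.03% ± 0.216 to 47.9% ± 2.44, whereas the histone chaperone RBBP7 fell from 15.2% ± 2.10 to 11.2% ± 1.48. Of the partners of MGA 7 of 8 rose, with E2F6 going from 6.64% ± 1.58 to 64.1% ± 2.93. Of the genes of MYC turnover 5 of 7 rose, with the ubiquitin ligase subunit FBXW7 going from 3.04% ± 0.533 to 55.3% ± 5.37. In the comparison of genotypes without drug, none of the 37 was called.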

How the data were processed

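RNA from 24 samples was sequenced, and the authors deposited 1 table per sample with PSI in percent for each end of each junction and each exon-intron boundary. The submitters' processing notes name STAR and hg19, and the authors' normalization is to all reads at a splice site, so values at a site add up to 100 or, without reads, to 0, which was treated as missing. Of 1830076 entries, 6433 on the mitochondrial genome or without strand were left out. The members and gene lists were chosen with earlier results of these data known. One splice-site sequence is not reported here.

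PSI was turned into ln((PSI + 1)/(100 − PSI + 1)) and fitted with limma 3.58.1 in R 4.3.3 in the 12 samples compared, or in all 24 for the interaction and for gene values, with Benjamini-Hochberg adjustment over all entries or genes tested. Shares of spliced usage were compared with exact permutation tests, 2-sided, an alternative chosen after seeing the data. The junctions compared in this way were picked from the same data. The 3 junction entries per member with the largest called differences were named by rule, and other named entries were chosen after their values were seen. The fit was tested on simulated data. The files hold no counts, so the depth behind each PSI is unknown and no interval is given. No 2 samples were identical. Same-numbered samples did not deviate together (r from −0.0059 to 0.008 over 6 pairs per comparison), so the number was not used as a block in the values above.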

Additional observations from a re-analysis of the deposited data

Results flagged for a closer look

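Values within groups of 6 samples were screened for a single sample far from the rest by Dixon's test at the 95% level. Of 86 groups screened 8 had one. Both ends of a skipping junction were screened although they share reads, and in some groups all other values were 0. The rate of about 1 in 20 that chance gives for independent, normally spread values therefore does not apply. In Y36C DMSO, 1 sample had an MNT retention of 11.8% where the others reached at most 2.94%, and 1 had an MGA retention of 0.381% where the others lay between 0.649% and 0.720%. Skipping of MXI1 exon 3 was 11.0% at its 5′ end and 11.3% at its 3′ end in 1 Y36C DMSO sample, where the others reached at most 3.95% and 4.05%. In WT E7107, 1 sample had MLX exon 5 skipping of 4.35% at the 5′ end and 3.49% at the 3′ end, and 1 had MXD3 exon 3 skipping of 8.33% at the 5′ end and 4% at the 3′ end, where all others were at 0%.

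The effect of E7107 differed between the genotypes by the interaction test of limma, given here as Y36C minus WT in log odds with its adjusted p. Retention by gene gave −4.95 for MNT (adjusted p = 1.69e-07), −2.75 for MAX (3.32e-11), −2.15 for MGA (0.0307), −1.89 for MYC (6.07e-18), −0.865 for MXD3 (5.67e-05) and −0.448 for MLX (0.00104). The MXD3 value includes 4 boundaries inside RAB24, and over reference introns only it was −0.15 (adjusted p = 0.432). Most boundaries in the MAX value and both in the MNT value passed the filter only through E7107 samples. The boundaries of MXD3 intron 5 went the other way, with 1.83 at the 3′ end (adjusted p = 0.00051) and 2.09 at the 5′ end (0.0133). Skipping of MLX exon 3 gave 1.45 at both its ends (6.01e-07 and 6.41e-08). Skipping of MAX exon 2 gave 1.17 at the 3′ end (0.000166) and 0.917 at the 5′ end (0.00112), and that of MAX exon 4 gave 1.06 at the 3′ end (5.03e-05) and 1.16 at the 5′ end (3.53e-05), where the entries joined the test only through the Y36C E7107 group.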

How the results depend on the processing

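The rise of 10 member boundaries in Y36C cells became 8 without entries inside RAB24 and 5 with the replicate block. It became 3 where a difference of at least 10 percentage points was also required. That requirement left 4 of the 12 exon-skipping entries called higher in Y36C cells, 5 of the 8 called higher in Y36C than in WT cells under E7107, and 0 of the 1 called lower in WT cells, which became 2 with PSI in percent as the response and 2 without the filter on PSI. The 2 entries called between the genotypes without drug became 0 with an offset of 0.1 points, without the filter, with a mean PSI of at least 5%, with the replicate block, in 1 fit over all 24 samples, and without entries inside RAB24. No member gene was called in that comparison, but 1 (MYC) was over reference introns only. Those also ended both MXD3 calls between the genotypes, for the difference under E7107 and for the interaction, and the median over boundaries ended the interaction calls of MXD3 (−0.72, adjusted p = 0.0532) and MLX (−0.22, adjusted p = 0.259). Among single entries and genes, the replicate block kept the call of 150 and lost that of 12, an offset of 0.1 lost 16, an offset of 5 lost 2, no filter lost 9 and the 10-point requirement lost 45. Of spliced usage alone, the MYC acceptor 3 bases downstream turned direction, with 2.62 percentage points in WT cells and −3.60 for Y36C against WT cells under E7107. Alternatives on reference introns, on RAB24 and on spliced shares were chosen after seeing the data. The cause of these changes was not tested. Depth is unknown, and low PSI at few reads could not be told from 0.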

Other observations

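Among genes that work with the network, 3 of 37 had a higher interaction of limma, that is, a change in retention under E7107 that was greater in Y36C than in WT cells, against 16.4% of all genes. MLXIPL (ChREBP), the glucose-responsive partner of MLX, had a mean boundary PSI of 20.1% ± 2.10 (SD, n = 6) without and 32.2% ± 8.85 with E7107 in WT cells and of 22.7% ± 3.41 and 47.7% ± 3.87 in Y36C cells, an interaction of 0.91 in log odds (adjusted p = 0.00196). RBBP7 went from 15.0% ± 1.90 to 18.4% ± 1.33 in Y36C cells, against its fall in WT cells (0.89, adjusted p = 8.83e-07). HDAC1, the deacetylase of the SIN3 complex, stayed between 5.51% and 6.54% in all group means (0.17, adjusted p = 0.0228). These genes were named after their values were seen, and how many boundaries stand behind each value is not given.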
